A study of Homo sapiens with 4 samples.

Results

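THUMPD1, its catalytic partner NAT10 and 4 related genes, THUMPD2, THUMPD3, TRMT11 and TRMT112, were followed in RNA-seq of WT and THUMPD1 KO HEK-293T cells. They were picked by gene symbol, and all 6 were found among the 18917 genes of the count table. The table holds 4 libraries, 2 from WT cells and 2 from cells of genotype KO, all grown in DMEM with serum and glutamine. HEK-293T is an immortalized line of human embryonic kidney cells, and the sample labels call it HEK293. The KO was made by cutting the coding sequence of THUMPD1 with a pair of CRISPR-Cas9 guides delivered on plasmids, and candidate cells were afterwards sorted singly. How many clones the 2 KO libraries came from is not given, so an effect of the genotype and a property of a clone cannot be told apart. Nothing in the labels says that replicates were separate cultures, so p-values measure the spread between these libraries, which may be technical.

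NAT10 is the acetyltransferase that makes N4-acetylcytidine (ac4C) in RNA. For tRNA it needs THUMPD1, an adapter that binds the tRNA through its THUMP domain, a fold found in several proteins that act on RNA, and the acetylated tRNAs are those for leucine and serine. THUMPD2, THUMPD3 and TRMT11 carry a THUMP domain too, but joined to a methyltransferase domain. They put a methyl group on a guanosine, in the U6 small nuclear RNA by THUMPD2 and in tRNA by THUMPD3 and TRMT11, and each works as a pair with TRMT112, a small activator protein that several methyltransferases share. NAT10 also acetylates 18S ribosomal RNA, a task in which small nucleolar RNAs rather than THUMPD1 guide it.

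The region before the start of a gene is shown for NAT10, as THUMPD1's partner in acetylation, and for TRMT112, because it is part of the stretch between TRMT112 and PRDX5. Each line holds the 250 bases before a RefSeq start (GRCh38.p14), 5′ to 3′ on the strand of the gene, at chr11:34105379-34105628 (plus) and chr11:64317560-64317809 (minus). Capitals mark, on either strand, CCGGAAG, letters that ETS factors bind, or TGCGCA, part of the site that NRF1 binds.
NAT10: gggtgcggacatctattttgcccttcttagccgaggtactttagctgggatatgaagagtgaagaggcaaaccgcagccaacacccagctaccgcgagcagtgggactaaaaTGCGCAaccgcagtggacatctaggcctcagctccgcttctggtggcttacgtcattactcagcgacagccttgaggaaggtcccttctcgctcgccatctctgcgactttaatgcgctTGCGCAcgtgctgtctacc
TRMT112: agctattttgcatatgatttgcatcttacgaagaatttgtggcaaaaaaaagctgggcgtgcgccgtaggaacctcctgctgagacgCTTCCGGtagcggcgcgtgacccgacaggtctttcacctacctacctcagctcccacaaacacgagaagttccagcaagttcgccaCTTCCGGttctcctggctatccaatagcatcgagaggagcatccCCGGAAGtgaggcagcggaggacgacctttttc
CCGGAAG occurs in 8.52% of the 35116 stretches of this length in the RefSeq set and TGCGCA in 6.89%. The TRMT112 stretch holds CCGGAAG at -163, -77 and -33 from the start, and a second RefSeq start of TRMT112 has it at -75, with TGCGCA at -109. NAT10 holds TGCGCA at -138 and -19, and TRMT11 holds CCGGAAG at -88. The stretches of THUMPD1 and THUMPD3 hold neither, and TATAAA, found in 10.7% of the set, occurs before none of the starts examined. RefSeq stretches were found for THUMPD1, THUMPD3, NAT10, TRMT112 and TRMT11.

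Library totals ran from 7875722 to 11362363 counts, and the test took in 13128 genes, those reaching 1 CPM in 2 or more libraries. CPM (counts scaled to library size) used the TMM factors of edgeR. Of 8 genes listed for HEK293 lines, all passed this filter, but LHX1 did so through the KO pair alone. LHX1 stood at 0.782 and 0.546 CPM in the WT pair and at 3.20 and 2.54 CPM in the KO pair. PAX2 had means of 6.56 ± 0.135 CPM in WT and 7.26 ± 0.972 CPM in KO (SD, n = 2). Of these 8, NEFM and KRT18 were called lower in KO cells, where 20.9% of all tested genes were called and 12.1% called lower. LHX1 was called higher, but it entered the test through the KO pair alone, so nothing is drawn from that call. The summed level of the 8 genes was 624 to 642 CPM in WT and 484 to 517 CPM in KO libraries. Without NEFM it was 447 to 457 CPM in WT and 458 to 494 CPM in KO libraries. Most of that sum was VIM, at 317 and 309 CPM in the WT pair and 323 and 354 CPM in the KO pair, so it says little about the other markers. Of 6 genes of blood, endothelium, liver, fibroblasts and basal epithelium, COL3A1 alone passed the filter. The summed level of these 6 was 4.83 and 5.28 CPM in the WT pair and 7.69 and 6.57 CPM in the KO pair. COL3A1 had a log2 fold change of 0.51 (standard error 0.32, edgeR quasi-likelihood, adjusted p = 0.273) and was not called. KRT5 was at 0 counts in all 4 libraries. In such bulk libraries a change in the make-up of the cells and a change in the RNA per cell cannot be told apart.

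The targeted gene was read first. THUMPD1 (ENSG00000066654.14) spans 20702816 to 20742084 on the minus strand of chromosome 16 (GRCh38, GENCODE 44). The WT pair of libraries gave 356 and 468 counts and the KO pair 71 and 58, which scaled to 46.4 and 42.6 CPM against 6.13 and 5.45 CPM. Both KO libraries lay far below both WT libraries. KO cells thus held 13.1% of the WT level, with a 95% interval from 10.3 to 16.6%, and its log2 fold change, -2.93 with a standard error of 0.17, met the cutoff of 0.05 (edgeR quasi-likelihood, Benjamini-Hochberg adjusted p = 1.27e-12 over all tested genes). The remaining 71 and 58 counts had exact Poisson intervals of 55.45 to 89.56 and 44.04 to 74.98 counts, well above 3 counts, which was used as the floor and was worth at most 0.391 CPM. These counts are of RNA, and whether that RNA yields protein was not tested here. By Western blot the paper reported loss of THUMPD1 protein in its HEK-293T KO cells.
Chromosome 16 as a whole was lower in KO cells, with a median log2 fold change of -0.44 over its 573 tested genes. The median of all tested genes was 0.01. Chromosome 22 was also low, with a median of -0.42 over its 310 tested genes. THUMPD1 lay -2.49 from the median of chromosome 16, and 3 genes of chromosome 16 had a lower log2 fold change. The nearest tested gene that does not overlap THUMPD1, ERI2, lies 38109 bases away and had a log2 fold change of -0.15 (standard error 0.18, edgeR quasi-likelihood, adjusted p = 0.585). GPRC5B, the nearest on the other side, 816649 bases away, was lower at -0.83 (standard error 0.17, edgeR, adjusted p = 0.000823). The part of the chromosome-wide shift in the fall of THUMPD1 was not tested. ACSM3 overlaps THUMPD1 on the opposite strand and gave 12 and 31 (WT) and 25 and 20 counts (KO), all fewer than the THUMPD1 counts of the same library. Pseudogenes annotated on the same strand (20720994 to 20722281) and on the opposite strand also overlap THUMPD1 and were matched to no row of counts. Whether reads were assigned by strand is not stated.

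Among the 6 genes, THUMPD1 was lower, 0 were higher and the other 5 did not pass the threshold. Over all 13128 tested genes 20.9% were called, 12.1% lower and 8.79% higher. The median log2 fold change of the 6 genes was -0.08, beside 0.01 over all genes. The count of 0 higher came from edgeR's quasi-likelihood test, and DESeq2 and limma-voom also gave 0. At an unadjusted p of 0.05 edgeR had 2 higher, THUMPD2 and TRMT11. The share of all genes at that unadjusted threshold was not counted, so these 2 have no background beside them. DESeq2 called 13.4% of all genes (4.91% higher) and limma-voom 20% (9.74% higher). With library size alone, where THUMPD2 and TRMT11 were called too, the share over all genes was 24.7% (15.9% higher). With the other edgeR settings it was 21.6% for the upper quartile, 20.9% for DESeq2's size factors, 17.4% without a filter, 22.5% with at least 10 counts in every library and 24.5% with the replicate block. It was 19.7 and 16.8% without WT replicate 1 or 2, and 12.3 and 17.6% without KO replicate 1 or 2. In the last of these, where THUMPD2 was called higher, 6.95% of all genes were.

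**Figure D1:**
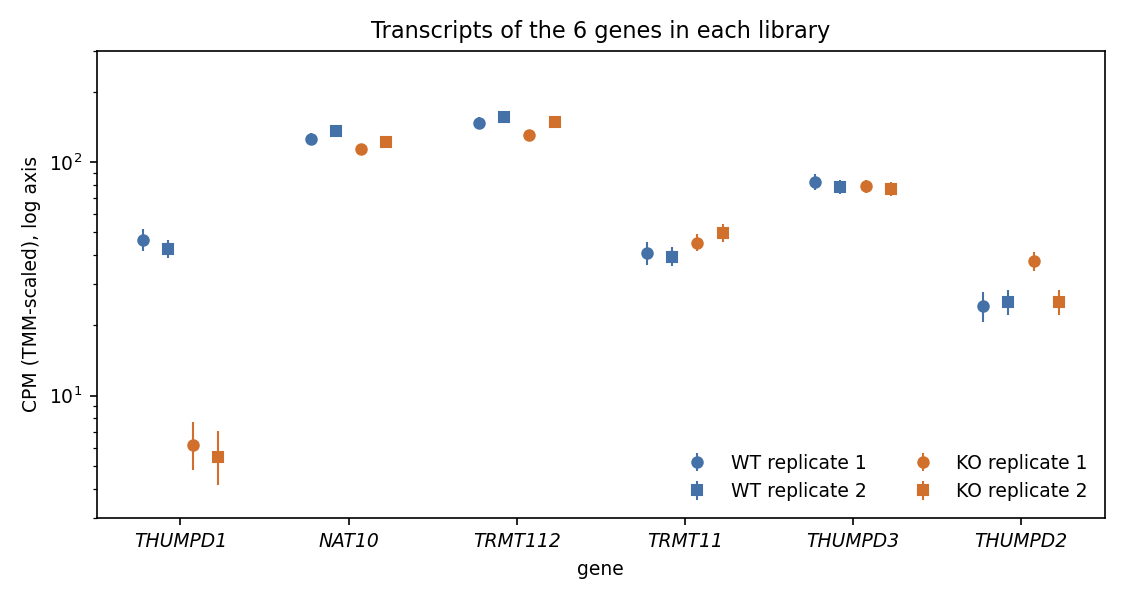
CPM on a log axis for each of the 6 genes in the 2 WT (blue) and 2 KO (orange) libraries, circles for replicate 1 and squares for replicate 2, with exact 95% Poisson intervals of the counts. THUMPD1 drops from above 40 to near 6 CPM, whereas the other genes stay within 1.5-fold of WT, apart from THUMPD2 in KO replicate 1, at 37.7 CPM.

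NAT10 (ENSG00000135372.10, plus strand of chromosome 11, 34105617 to 34147670) gave 964 and 1488 counts in the WT pair and 1312 and 1301 in the KO pair. Scaled, WT stood at 126 and 135 CPM and KO at 113 and 122, so that the KO libraries lay below the WT libraries, but the higher KO value was only slightly under the lower WT value. Of all tested genes, 30% had both KO libraries below both WT libraries. The log2 fold change of NAT10 was -0.15 (standard error 0.08, edgeR quasi-likelihood, adjusted p = 0.160), not past the threshold. Its 95% interval ran from 80.8 to 100.2% of the WT level, which includes both no change and a fall to 80.8%. Put per kb of transcript, THUMPD1 stood at 33.7 and 28.7% of the NAT10 level in the WT libraries and at 4.93 and 4.07% in the KO libraries.
NAT10 also belongs to a module of the small subunit processome, the particle that assembles the small ribosomal subunit, together with NOL10, AATF and NGDN. Of these 3 genes AATF was lower, as were 12.1% of all tested genes, 0 were higher and 2 did not pass. The count of 0 higher was the same in edgeR's test, in DESeq2 and in limma-voom, beside 8.79%, 4.91% and 9.74% of all tested genes. At an unadjusted p of 0.05 edgeR also had 0 higher, but the share of all genes at that threshold was not counted. AATF stood at 201 and 216 CPM in the WT pair and at 151 and 172 in the KO pair. Both KO libraries lay below both WT libraries, as in 30% of all tested genes. Its log2 fold change was -0.37 (standard error 0.07, edgeR quasi-likelihood, adjusted p = 0.000551), and AATF was called lower in all 8 alternatives and with each library left out, between -0.47 and -0.27. NGDN, at -0.20, and NOL10, at -0.12, were not called (edgeR, adjusted p = 0.206 and 0.401), and NOL10 ran from -0.23 without WT replicate 2 to -0.0092 without WT replicate 1. The median of the 3 was -0.20. SNORD13, a small nucleolar RNA that guides NAT10 on ribosomal RNA, was on the list too but had no row of counts.

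TRMT112 (ENSG00000173113.7, minus strand of chromosome 11, 64316460 to 64317559), the shared activator, gave 1126 and 1723 counts in the WT pair and 1510 and 1575 in the KO pair. In CPM this was 147 and 157 against 130 and 148, and the genotypes overlapped. The log2 fold change was -0.13 (standard error 0.08, edgeR quasi-likelihood, adjusted p = 0.240), with an interval from 82.2 to 101.8% of WT. The KO replicates of TRMT112 lay 0.18 log2 units apart, more than the log2 fold change between the genotypes.
PRDX5, a peroxiredoxin, starts 562 bases from TRMT112 and runs in the other direction. Unlike TRMT112 it was called lower, from 261 CPM in WT to 195 CPM in KO cells on average, giving a log2 fold change of -0.43 (standard error 0.07, edgeR, adjusted p = 0.000147). The difference between the log2 fold changes of TRMT112 and PRDX5 was not tested. ESRRA, which overlaps the other end of TRMT112 on the opposite strand, had a log2 fold change of -0.02 (standard error 0.12).

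TRMT11 (ENSG00000066651.20, plus strand of chromosome 6, 125986479 to 126203817), the methyltransferase that acts on a guanosine of many tRNAs, gave 312 and 433 counts in the WT pair and 524 and 530 in the KO pair. WT thus stood at 40.7 and 39.4 CPM and KO at 45.3 and 49.8, and each KO library exceeded each WT library, as in 30.4% of all tested genes. Its log2 fold change of 0.25 (standard error 0.11) missed the cutoff (edgeR quasi-likelihood, adjusted p = 0.120). The interval ran from 101.2 to 139.2% of WT. With library size alone as the scaling it was called higher, at 0.33, but that scaling also moved the median of all genes from 0.01 to 0.09.

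THUMPD3 (ENSG00000134077.16, plus strand of chromosome 3, 9362971 to 9386791), a methyltransferase of tRNA, gave overlapping levels in the genotypes. The WT pair gave 632 and 858 counts and the KO pair 914 and 819, or 82.4 and 78.1 CPM against 79.0 and 76.9 CPM, which overlap. The log2 fold change was -0.04 (standard error 0.09, edgeR quasi-likelihood, adjusted p = 0.787), and its sign turned with library size alone (0.045) and with limma-voom and quantile normalization (0.0069). The 95% interval of 86.1 to 109.9% of WT includes both a fall and a rise. SRGAP3 overlaps THUMPD3 on the opposite strand with fewer counts than THUMPD3, namely 124 and 187 (WT) and 123 and 135 (KO). SRGAP3 reaches only to 9363053. THUMPD3-AS1, a noncoding RNA gene on the same strand as SRGAP3, spans all of THUMPD3 (9349689 to 9398579) and was matched to no row of counts.

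THUMPD2 (ENSG00000138050.15, minus strand of chromosome 2, 39736060 to 39779267), the enzyme for U6, was the gene whose KO libraries went apart. The WT pair gave 185 and 276 counts, against 436 in KO replicate 1 and 267 in KO replicate 2. The corresponding values were 24.1 and 25.1 CPM in WT, 37.7 CPM in KO replicate 1 and 25.1 CPM in KO replicate 2. KO replicate 2 thus stood at the WT level and KO replicate 1 alone was high.
The KO replicates differed by 0.58 log2 units, against a median of 0.13 over the 2969 tested genes within 1.5-fold of the mean CPM of THUMPD2, and 15 of those (0.505%) differed by as much. The WT replicates differed by 0.06. The exact Poisson intervals of the KO replicates, 34.2 to 41.4 and 22.2 to 28.3 CPM, do not overlap. The log2 fold change between the genotypes, 0.35 (standard error 0.16), missed the cutoff (edgeR quasi-likelihood, adjusted p = 0.122). It was 0.61 and called without KO replicate 2, and 0.025 and not called without KO replicate 1 (edgeR, adjusted p = 0.00442 and 0.958, with 3 libraries, in which the lone KO library is assumed to vary like the others). With library size alone THUMPD2 was called higher at 0.44. Which KO replicate was kept decided this value, and whether THUMPD2 differed between the genotypes cannot be settled with these libraries.

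**Figure D2:**
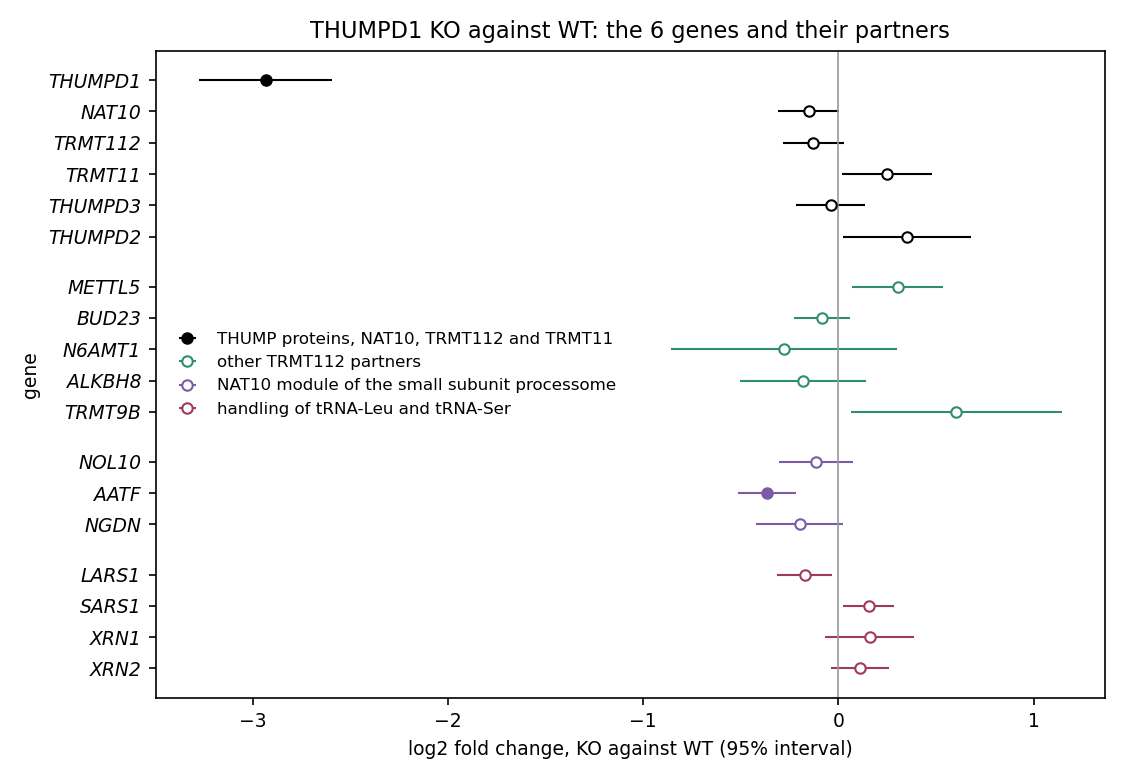
Log2 fold changes of KO against WT on the x axis with 95% intervals from edgeR, for the 6 genes and 3 further lists (y axis). The lists hold the tested TRMT112 partners, genes of the NAT10 module and genes that handle the acetylated tRNAs. Filled points passed an adjusted p of 0.05, and THUMPD1 (-2.93) and AATF (-0.37) are the filled ones.

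Levels between genes were compared in CPM per kb of the MANE Select transcript, since longer transcripts give more reads. In WT cells TRMT112 stood highest at 187 ± 8.65, followed by NAT10 at 32.9 ± 1.72 CPM per kb (SD, n = 2). TRMT11, at 21.7 ± 0.495, and THUMPD3, at 21.4 ± 0.819 CPM per kb, overlapped and could not be put in order on this length. Over all annotated exons TRMT11 stood at 6.998 ± 0.159 and THUMPD3 at 15.3 ± 0.588 CPM per kb, so that the place of TRMT11 depended on the length used. THUMPD2, at 11.2 ± 0.317, and THUMPD1, at 10.2 ± 0.624 CPM per kb, were lowest on the MANE transcript, in an order that also turned over with all exons. In KO cells THUMPD1 was at 1.33 ± 0.111 CPM per kb, below every other gene. THUMPD2, at 14.2 ± 4.04 CPM per kb, had the widest spread among the 6 for its level.
The transcripts of the 3 methyltransferases THUMPD2, THUMPD3 and TRMT11 added up to 30.4 and 27.7% of the TRMT112 level per kb in WT libraries and to 39.0 and 32.3% in KO libraries. Both KO values lay above both WT values, and KO replicate 1, the library with high THUMPD2, gave the higher of them. TRMT11 alone stood at 12.2 and 11.1% of TRMT112 in WT and at 15.3 and 14.8% in KO libraries. THUMPD3 alone stood at 12.1 and 10.8% in WT and at 13.1 and 11.2% in KO libraries, which overlap. THUMPD2 alone stood at 6.05 and 5.90% in WT and at 10.6 and 6.24% in KO libraries. Over all exons the TRMT11 ratio was 5.33 and 4.83% in WT and 6.67 and 6.47% in KO libraries. The sum stood at 21.8 and 19.9% against 27.7 and 22.3%. These ratios were formed after the values of the genes were known and were not tested. How often ratios of other genes separate the genotypes was not counted.

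TRMT112 also activates METTL5 and BUD23, which methylate ribosomal RNA of the small subunit, ALKBH8, which modifies the wobble base of some tRNAs, and N6AMT1, which methylates a translation release factor. TRMT9B is a relative of ALKBH8. Of these 5 genes 0 were called in edgeR's test, beside 20.9% of all genes, 0 in DESeq2 and 0 in limma-voom. At an unadjusted p of 0.05, METTL5 and TRMT9B were higher, but the share of all genes at that threshold was not counted. METTL5 was closest to a call, with the WT pair at 36.8 and 42.7 CPM, the KO pair at 48.9 and 49.7, and a log2 fold change of 0.30 (standard error 0.11, edgeR quasi-likelihood, adjusted p = 0.0566). TRMT9B, counted under its older symbol, was at 5.22 and 7.01 CPM in the WT pair and at 9.33 and 9.48 in the KO pair, giving a log2 fold change of 0.60 (standard error 0.26, edgeR, adjusted p = 0.106). METTL5 was called higher in 4 of the 8 alternatives. BUD23, at -0.09, ALKBH8, at -0.18, and N6AMT1, at -0.28, had adjusted p-values of 0.410, 0.443 and 0.519 in the same edgeR test. In N6AMT1 the KO replicates lay 0.93 log2 units apart, at 5.18 and 10.0 CPM, and without KO replicate 1 its log2 fold change turned to 0.13. The median of the 5 was -0.09.

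Genes that handle the acetylated tRNAs were taken as a further list. LARS1 and SARS1 charge the leucine and serine tRNAs, XRN1 and XRN2 are exonucleases that degrade tRNAs lacking modifications in yeast, and SLFN11 and SLFN12 cleave leucine or serine tRNAs. Of the 4 tested, 0 were called in edgeR's test, beside 20.9% of all genes, and 0 in DESeq2, beside 13.4%. At an unadjusted p of 0.05 SARS1 was higher and LARS1 lower, again without a share of all genes at that threshold. SARS1 was called higher in limma-voom, at 0.18, and in 3 of the other alternatives. In the edgeR fit the WT pair stood at 308 and 329 CPM and the KO pair at 343 and 367, giving a log2 fold change of 0.15 (standard error 0.06, edgeR quasi-likelihood, adjusted p = 0.0832). LARS1 stood at 176 and 183 CPM in the WT pair and at 163 and 155 in the KO pair, giving a log2 fold change of -0.17 (standard error 0.07, edgeR, adjusted p = 0.0699). LARS1 was called lower with the replicate block (-0.17, edgeR, adjusted p = 0.0372) and in none of the other 7 alternatives. XRN1, at 0.16, and XRN2, at 0.11, were not called. Leaving out WT replicate 2 put XRN1 at 0.046, and leaving out WT replicate 1 put it at 0.27. Scaling by library size alone called XRN2 higher, at 0.20. The median of the 4 was 0.13. SLFN11 gave 0 and 4 (WT) and 3 and 5 counts (KO), at or near the floor, and SLFN12 had 0 in all, under the floor of 3 counts, which was worth 0.259 to 0.391 CPM by library. The floor covers counting error only.

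**Figure D3:**
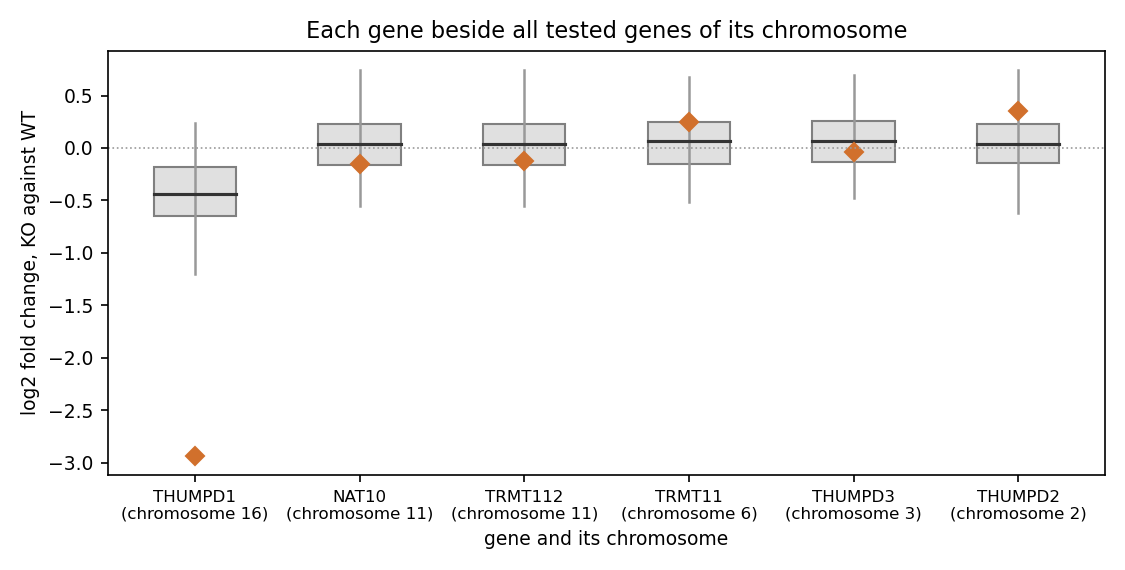
Log2 fold change (y axis) of each gene (orange diamond) beside the tested genes of its chromosome, with the median as a dark line, the quartiles as a box and the range from the 5th to the 95th percentile as a grey line. Chromosome 16 is centred at -0.44 and THUMPD1 lies at -2.93, below its 5th percentile of -1.20, while the other 5 genes lie within the grey lines.

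The other 5 genes lie on chromosomes whose medians were near 0, between 0.04 and 0.06. On chromosome 11, 187 of 739 tested genes had a lower log2 fold change than NAT10 and 207 a lower one than TRMT112, and on chromosome 6, 176 of 695 exceeded TRMT11. On chromosome 2, 136 of 894 genes exceeded THUMPD2, and THUMPD3 lay above 269 of the 745 genes of chromosome 3. Among their tested neighbours, NAT10 had CAPRIN1 at 0.13 and ABTB2 at -0.24, and TRMT11 had HINT3 at 0.26 and CENPW at 0.19. Beside THUMPD2 lay MAP4K3 at -0.13 and SLC8A1 at -0.14, beside TRMT112 GPR137 at -0.07, and beside THUMPD3 SETD5 at 0.11. None of these 8 was called. RAD18, on the far side of THUMPD3, was called higher at 0.53 (standard error 0.10, edgeR quasi-likelihood, adjusted p = 0.000485).

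The genes most like each of the 6 over the 4 libraries were found by the Euclidean distance between log2 CPM centred on their mean. For THUMPD1 these were NEFM, a neurofilament subunit, at a distance of 0.06, PDE3A, a phosphodiesterase, at 0.24, and PID1 at 0.30. They had log2 fold changes of -2.87, -3.09 and -3.17. Only 19 of the 13128 tested genes had a lower log2 fold change than THUMPD1. For THUMPD2 the nearest were FAM151B, KCNN3 and LIG4. Because of how they were picked, they share its pattern and were high in KO replicate 1 alone. They had 97, 67 and 177 counts there against 62, 40 and 110 in KO replicate 2. For NAT10 they were FOXN3, HAUS1 and EXOSC3, for TRMT112 DDX19B, JRK and NARS, for THUMPD3 CHKA, INSIG1 and TAF1D, and for TRMT11 NSF, WDR45B and PROSC. With 4 libraries and small differences many genes come close, and the distances of these 4 sets ran from 0.00876 to 0.0229.

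**Figure D4:**
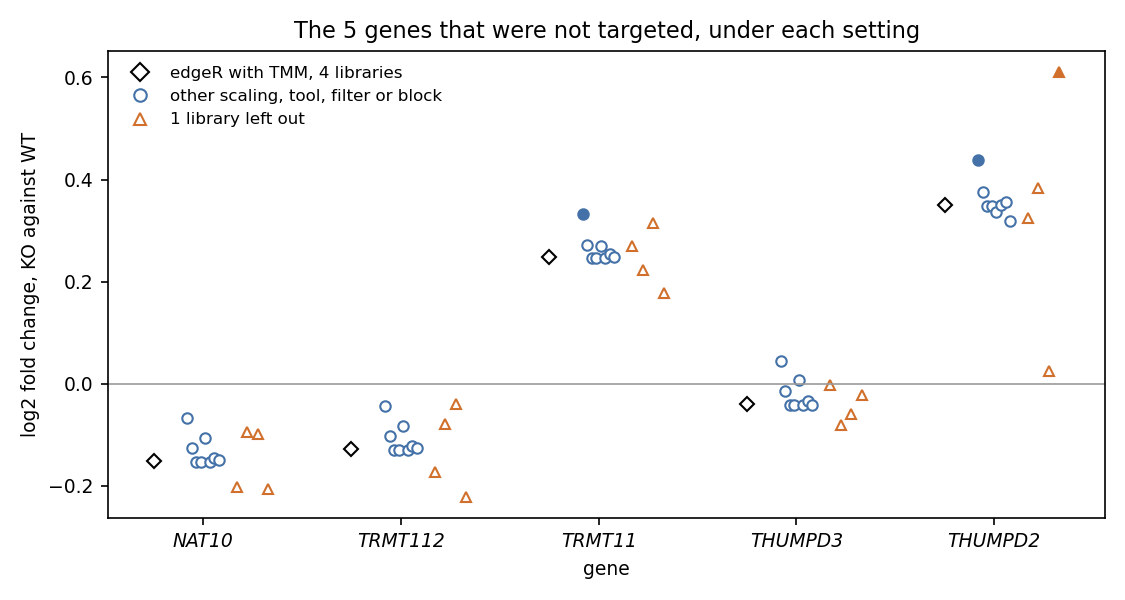
Log2 fold changes (y axis) of the 5 genes that were not targeted with edgeR and TMM on all 4 libraries (diamonds), in the 8 alternatives of scaling, tool, filter and block (circles) and with 1 library left out (triangles). Filled symbols passed an adjusted p of 0.05, namely TRMT11 at 0.33, and THUMPD2 at 0.44 and 0.61.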

How the data were processed

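RNA-seq counts of 2 WT and 2 THUMPD1 KO libraries were analysed, with genotype and replicate taken from the sample labels, which match the columns of the table. The authors deposited raw counts per gene symbol, without normalization. The labels name a RiboFree total RNA kit, and the submitters' processing notes name hg19, whereas the methods of the study name STAR and RSEM on GRCh38 for RNA-seq. The methods also name another kit, from Illumina, and 3 replicates, against 2 here. The pipeline behind the deposited counts was not given. The authors also deposited their own comparison (mean, log2 fold change, p-values), which was not used.

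Counts were tested with edgeR 4.0.16 in R 4.3.3 (TMM, glmQLFit, glmQLFTest). A gene entered when 2 or more libraries reached 1 CPM, which 13128 did, and p-values were adjusted over all of these by Benjamini-Hochberg. An exact permutation test of 2 against 2 libraries cannot give a two-sided p below 0.333. DESeq2 1.42.0, limma 3.58.1 (voom), other scalings and filters, a replicate block and leaving out each library were alternatives. The members and lists were chosen with earlier results of these data known, and the motifs and the marker lists likewise. Genes named are the 6 members, the 3 further lists, neighbours and overlapping genes, and the 3 nearest patterns per member. From the marker lists they are the genes called and the only other-cell gene that passed the filter. PAX2 and KRT5 are examples chosen after their values were seen, and VIM is named for its part in the marker sum. PRDX5 and the other neighbours came from that rule.

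Replicates differed by more than sampling noise, with a chi-square per degree of freedom of 4.08 (WT) and 6.90 (KO). Of the 18917 symbols, 17284 were placed on GENCODE 44 directly and 1197 through a RefSeq synonym. WBSCR22 was read as BUD23, KIAA1456 as TRMT9B, LARS as LARS1 and SARS as SARS1. Figures were drawn with matplotlib 3.10.9. The test was checked on simulated counts of 13128 genes. It recovered 79 of 100 genes with a true log2 change of 1 in size and 100 of 100 with a change of 3, with 14 false calls. Smaller changes were not simulated. Intervals of counts cover counting error only.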

Additional observations from a re-analysis of the deposited data

How the results depend on the processing

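THUMPD1 kept its direction and its call in all 8 alternatives, from -2.94 to -2.85, and also when 1 library was removed, from -3.02 to -2.85. Relative to the median of chromosome 16 it was at -2.49. With library size alone, which moved the median of all genes to 0.09, 3 of the 6 genes were called, with THUMPD2 at 0.44 and TRMT11 at 0.33 added and THUMPD3 turned to 0.045. With limma-voom THUMPD3 was at 0.0069, and relative to its chromosome at -0.10. Without KO replicate 2 the called genes were 2, THUMPD2 at 0.61 being added, and the count ran from 1 to 2 over the libraries left out. Over these, THUMPD2 ran from 0.025 to 0.61, THUMPD3 from -0.081 to -0.0025, NAT10 from -0.21 to -0.095, TRMT112 from -0.22 to -0.039 and TRMT11 from 0.18 to 0.32. The cause was not tested. Of the 12 tested genes of the 3 further lists, 1 was called (20.9% of all genes). It was 4 with library size alone (24.7%), 3 with the upper quartile (21.6%) and 2 with limma-voom (20%). It was 2 with at least 10 counts in every library (22.5%). With the replicate number as a block it was 4 (24.5%), where METTL5, SARS1 and LARS1 were added. Leaving out a library gave 1 to 3, the last without WT replicate 2 (16.8% of all genes). N6AMT1 ran from -0.83 without KO replicate 2 to 0.13 without KO replicate 1.

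The replicate numbers are not said to mark a shared day or culture, and the deviations of same-numbered libraries correlated at 0.0756 over 10005 genes. With the replicate block THUMPD1 was at -2.94, THUMPD2 at 0.32, THUMPD3 at -0.04, NAT10 at -0.15, TRMT112 at -0.13 and TRMT11 at 0.25, with the same calls. Over all exons in place of the MANE transcript, a choice made after seeing the data, WT levels per kb were 138 for TRMT112, 24.98 for NAT10, 15.3 for THUMPD3, 6.998 for TRMT11, 6.85 for THUMPD1 and 6.44 for THUMPD2, so that TRMT11 fell below THUMPD3 and THUMPD2 below THUMPD1. Those 250 bases aside, no call rests on the annotation.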
